A study of Mus with 8 samples.

Results

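The complement system was examined in mouse livers labelled as lacking the kinase LKB1 and in control livers, through the genes of its components, regulators and receptors. These genes were chosen by name, from a list of 34 drawn up with earlier results of these data known. The list covers the lectin pathway, the initiating proteases, the convertases, the terminal pathway, regulators and receptors, with the C1q chains left out. Of the 34, 32 had a row in the deposited table with their gene symbol and are described here, out of 23185 named genes in all. The other 2 listed genes had no named row and were not analysed here. All tissue was taken 48 hours after partial hepatectomy, the surgical removal of part of the liver, and each of 8 samples was measured on its own expression array. The Ctrl group held 4 liver samples labelled as controls and the LKB1 KO group 4 samples labelled as lacking LKB1, the kinase encoded by Stk11. The labels do not give the strain, the sex, the age, the means of deletion or the cells in which the gene was deleted, and they do not say that the samples of a group came from separate animals.

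Complement is a cascade of plasma proteins, most of them made by hepatocytes and secreted into the blood. Recognition molecules that bind microbial sugars or antibody activate serine proteases, these assemble convertases, and the convertases set free inflammatory peptides and start a pore, the membrane attack complex, which is built from the terminal components. Regulators in plasma and on cell surfaces restrain each step, and receptors on leukocytes read the products.

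Values are log2 intensities, and each difference is LKB1 KO minus Ctrl in log2 units with its standard error (SE) from limma, a linear model fitted to every gene. A gene passed the test when its p, adjusted over all 23185 genes, was under 0.05. The p-values reflect only how far these samples scatter, and part of that scatter may be technical. Levels are not set against each other between genes, since probes differ in brightness. As a gauge of background, the 95th percentile of the mean levels of 1350 odorant and pheromone receptor genes was 3.73. Array medians lay between 3.75 and 3.96. LKB1 KO 2 had the lowest mean correlation with its own group, 0.974, and Ctrl 4 the lowest among the Ctrl arrays, 0.976. Stk11 (Entrez Gene 20869) lay between 6.46 and 6.76 in the Ctrl arrays and between 3.97 and 4.84 in the LKB1 KO arrays, so no array went against its label. All 8 values lay above the gauge, so a reduced signal of Stk11 was measured in LKB1 KO and not its absence. In these whole-liver samples, fewer cells of a type and less RNA per cell cannot be told apart.

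Many complement genes were lower in the LKB1 KO livers, and none of the 32 measured members rose. In all, 13 fell: the recognition lectin Mbl1, the proteases C1ra and Masp1, the convertase genes C2, C4b and Cfb, the terminal components Hc, C6, C8a, C8b and C9, and the plasma regulators C4bp and Cfi. That is 40.6% of the members, where 1.49% of all genes fell and 0.487% rose. Genes with bright probes were called more often, and among the brightest 10% of all genes 5.99% fell. The mean was lower in LKB1 KO for 29 of the 32 members, beside 47.1% of all genes. The median difference over the members was -0.48 and that over all genes 0.02. At an unadjusted p under 0.05, 21 members were lower and 0 higher, beside 7.63% and 5.8% of all genes. With no moderation of variances 10 were called lower and 0 higher: 8 of the 13, and Serping1 and Vtn.

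The size of the falls was moderate and ran from 1.49-fold for Cfb to 3.40-fold for C6. Of the 13, 4 differed at least 2-fold: C6, C1ra, C9 and C8a. The Ctrl and LKB1 KO arrays did not overlap for 18 members, all of them lower in LKB1 KO, beside 5.5% of all genes in that direction and 3.34% in the other. The count of falls was 8 without Ctrl 1, 6 without Ctrl 2 and 8 without LKB1 KO 3, and 9 to 14 without any other single array. It was 13 without both LKB1 KO 2 and Ctrl 4. Quantile normalization raised the share of rises among the calls over all genes from 24.7% to 36.8%, and it called 12 complement genes lower and 0 higher.

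**Figure D1:**
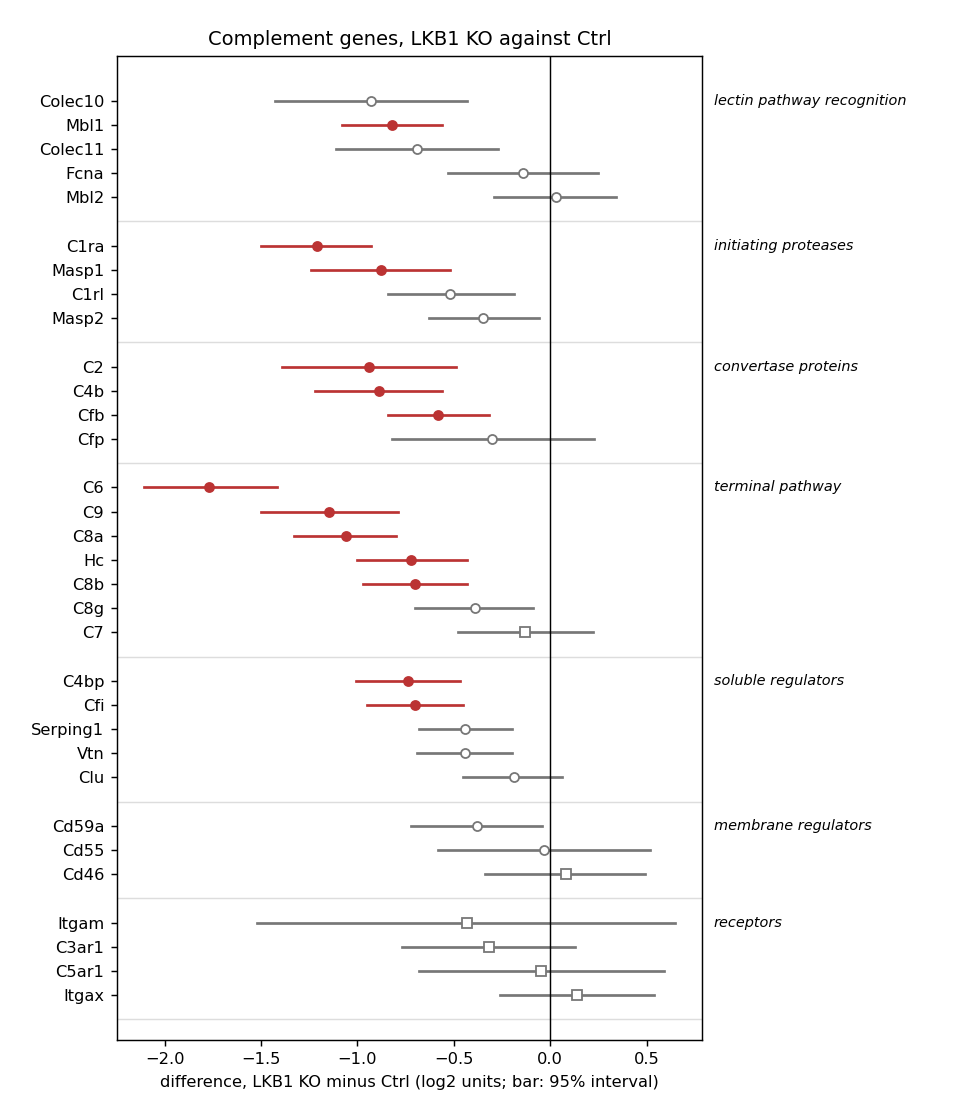
Difference between LKB1 KO and Ctrl for each of the 32 complement genes, in log2 units with the 95% interval from limma, grouped by role; filled red points passed the adjusted threshold of 0.05, open points did not, and squares mark genes whose mean level lay below the background gauge of 3.73. The 13 filled points all lie to the left of 0, from -0.58 for Cfb to -1.77 for C6, and the 4 receptors lie between -0.43 and 0.14.

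The terminal pathway held the largest fall of any single member, while its median was close to that of the convertase genes (-0.73). Its products assemble in order on a target membrane: C5, encoded by Hc, is split to start the complex, C6 and C7 join, C8 inserts into the membrane and C9 polymerises into the pore. Of 7 measured genes, 5 fell, 0 rose and 2 did not pass, with a median difference of -0.72.

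C6 (Entrez Gene 12274) changed most of all members. Its log2 values were 8.80, 8.77, 8.18 and 8.41 in Ctrl 1 to 4 and 6.73, 6.84, 6.70 and 6.81 in LKB1 KO 1 to 4. The lowest Ctrl array stood 1.34 log2 units above the highest LKB1 KO array, and the LKB1 KO arrays lay close together. The difference was -1.77 (SE 0.16, adjusted p = 0.000947), a 3.40-fold lower level, and C6 ranked 7 by p among all genes.

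C9 (Entrez Gene 12279), the pore-forming subunit, was 2.21-fold lower. Its values were 11.03, 11.11, 10.79 and 10.71 in the Ctrl arrays and 9.86, 10.08, 9.50 and 9.63 in the LKB1 KO arrays. All 4 LKB1 KO values lay below all Ctrl values, with a difference of -1.15 (SE 0.16, adjusted p = 0.00542). The call of C9 was lost with no moderation of variances (adjusted p = 0.0588) and held in the other 15 alternatives.

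The C8 protein has 3 chains, each from its own gene. C8a (Entrez Gene 230558) stood at 10.57, 10.46, 10.34 and 10.36 in Ctrl and at 9.54, 9.32, 9.31 and 9.31 in LKB1 KO, a difference of -1.06 (SE 0.12, adjusted p = 0.00212). C8b (Entrez Gene 110382) stood at 10.98, 10.94, 10.78 and 10.69 in Ctrl and at 10.22, 10.23, 10.04 and 10.09 in LKB1 KO, a difference of -0.70 (SE 0.12, adjusted p = 0.0177). C8a and C8b thus had no overlap between groups. C8g, the gene of the lipocalin chain, had a difference of -0.39 (SE 0.14, adjusted p = 0.212), and its groups overlapped by 1 pair of neighbouring arrays, Ctrl 4 at 10.47 and LKB1 KO 3 at 10.51.

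The differences of the 3 chains were also set against each other within arrays. They are given as a description without p-values, since these and the other gene pairs were chosen after the values had been seen. The log2 value of C8a minus that of C8b, taken within each array, was lower by 0.36 (SE 0.06) in LKB1 KO, C8a minus C8g by 0.67 (SE 0.13) and C8b minus C8g by 0.30 (SE 0.11). In each of these the Ctrl and LKB1 KO arrays did not overlap.

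Hc (Entrez Gene 15139) read 10.94, 10.89, 10.74 and 10.60 in Ctrl and 10.18, 9.91, 10.05 and 10.16 in LKB1 KO, with no overlap and a difference of -0.72 (SE 0.13, adjusted p = 0.0190). C7 was at or under 3.24 in all 8 arrays, below the background gauge, so it was not above background in either group. The calls of Hc and C8b were lost on leaving out either Ctrl 1 or Ctrl 2, or either LKB1 KO 3 or LKB1 KO 4, with a highest adjusted p of 0.0684 for Hc and 0.0648 for C8b. Hc also lost its call with no moderation of variances (0.0588).

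**Figure D2:**
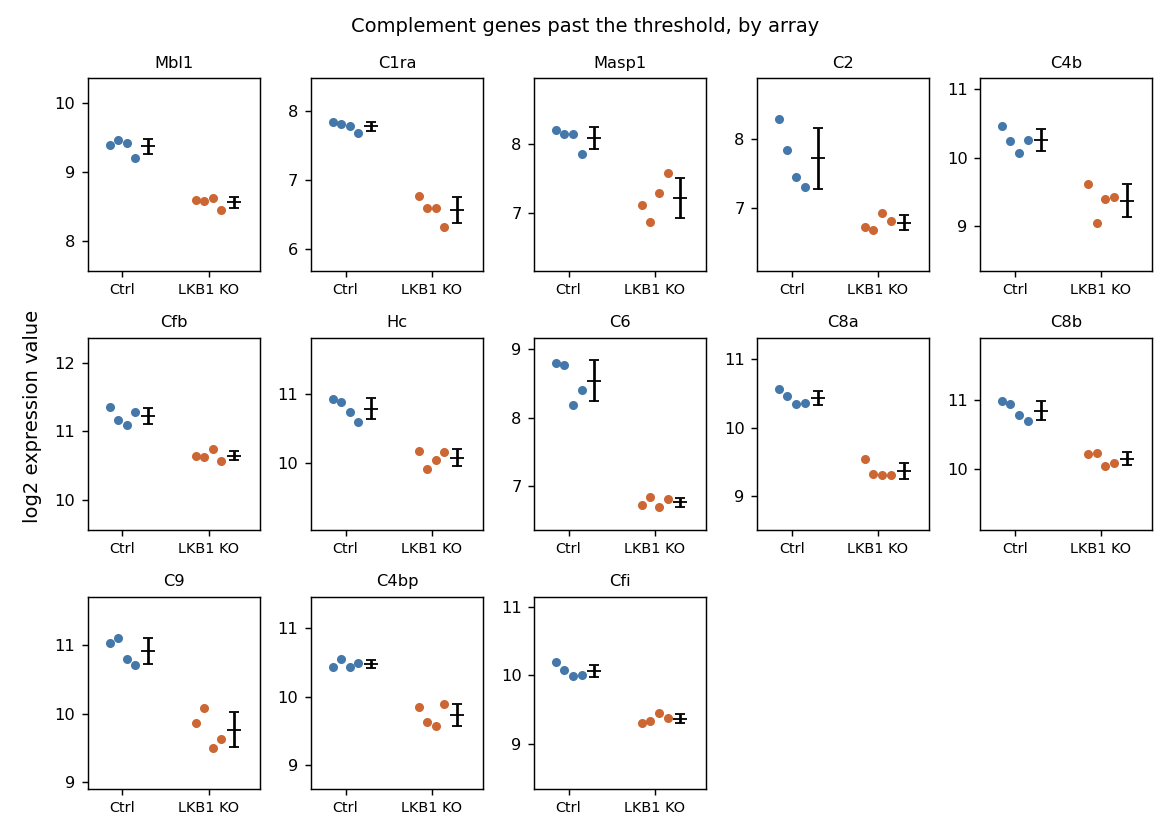
Log2 expression value per array of the 13 complement genes that passed the threshold, 4 Ctrl arrays in blue and 4 LKB1 KO arrays in orange, with the mean and SD of each group in black; every panel spans the same number of log2 units. The groups are apart in each panel, by 1.34 log2 units for C6 and by 0.29 for Masp1, and the C2 values of the Ctrl arrays spread most.

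Among the initiating proteases, 2 of 4 fell and 0 rose, with a median difference of -0.70. C1r, the product of C1ra, is the protease of the C1 complex that cleaves C1s. C1ra (Entrez Gene 50909) read 7.84, 7.82, 7.79 and 7.68 in Ctrl and 6.77, 6.60, 6.60 and 6.31 in LKB1 KO. The Ctrl arrays were nearly equal (SD 0.07), and the gap to the highest LKB1 KO array was 0.92. The difference of -1.21 (SE 0.13, adjusted p = 0.00181) is a 2.32-fold lower level. The probes of C1ra may pick up its near copy C1rb, whose values lay below the gauge in all arrays.

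Masp1, a protease that travels with the mannose-binding lectins, also fell. Masp1 (Entrez Gene 17174) read 8.20, 8.15, 8.15 and 7.86 in Ctrl and 7.12, 6.87, 7.29 and 7.58 in LKB1 KO, a difference of -0.88 (SE 0.16, adjusted p = 0.0228). The nearest arrays of the groups, Ctrl 4 and LKB1 KO 4, were 0.29 apart. The call of Masp1 ended without Ctrl 1, Ctrl 2, Ctrl 3, LKB1 KO 1 or LKB1 KO 3, where the highest adjusted p was 0.0768, and with no moderation of variances (0.113).

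The other members of this group, C1rl and Masp2, did not pass. C1rl, which encodes a C1r-like protease, stood at -0.52 (SE 0.15, adjusted p = 0.119), and Masp2, the protease that cleaves C4 and C2 in the lectin pathway, at -0.35 (SE 0.13, adjusted p = 0.262). The groups did not overlap for either, by 0.09 and 0.01 log2 units. Within each array, C1ra minus C1rl was lower by 0.69 (SE 0.15) and Masp1 minus Masp2 by 0.53 (SE 0.16) in LKB1 KO, with no overlap between groups for either.

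The recognition lectins ranged from -0.93 to 0.03. Of 5 measured, 1 fell and 0 rose, with a median of -0.69. Mbl1 and Mbl2 encode the mannose-binding lectins A and C of the mouse. Mbl1 (Entrez Gene 17194) read 9.39, 9.47, 9.42 and 9.21 in Ctrl and 8.59, 8.58, 8.62 and 8.44 in LKB1 KO, a difference of -0.82 (SE 0.12, adjusted p = 0.00663). Mbl2 read 10.36, 10.73, 10.86 and 10.40 in Ctrl and 10.63, 10.65, 10.68 and 10.50 in LKB1 KO. All LKB1 KO values of Mbl2 lay inside the range of the Ctrl arrays, and its 95% interval ran from -0.29 to 0.34 (adjusted p = 0.960). The within-array value of Mbl1 minus Mbl2 was lower by 0.84 (SE 0.10) in LKB1 KO, with no overlap between groups. The call of Mbl1 held in all 16 alternatives.

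The collectin genes Colec10 and Colec11 encode subunits of lectins that bind sugars and recruit MASP proteases. Colec10 came closest to the threshold without passing it, at -0.93 (SE 0.23, adjusted p = 0.0693). It read 5.07, 5.19, 5.34 and 4.39 in Ctrl and 3.76, 3.93, 4.53 and 4.07 in LKB1 KO. The overlap came from Ctrl 4, which lay below LKB1 KO 3. Colec11 stood at -0.69 (SE 0.19, adjusted p = 0.108), and again Ctrl 4, at 5.47, was under LKB1 KO 3, at 5.58. Colec10 minus Colec11 within arrays was lower by 0.24 (SE 0.17) in LKB1 KO, and the groups overlapped. Without Ctrl 4 both were called lower (adjusted p = 0.0165 for Colec10 and 0.0399 for Colec11). Of the 16 alternatives, Colec10 was called in 3 and Colec11 in 1. With another single array left out, adjusted p reached 0.191 for Colec10 and 0.258 for Colec11. Markers of stellate cells and fibroblasts, which are known to express collectins, had a median of -0.36, with 0 of 8 measured past the threshold. At an unadjusted p under 0.05, where 7.63% of all genes were lower, 4 of these markers were lower. Their summed level lay between 9.35 and 9.69 log2 units in Ctrl and between 8.82 and 9.21 in LKB1 KO. No marker of that list had a mean below the gauge, and the part of the list in the collectin values was not tested. Fcna, the gene of ficolin A, stood at -0.14 (adjusted p = 0.798).

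Of the 4 measured convertase genes, 3 fell and 0 rose, with a median of -0.73. C4b encodes C4, whose fragment binds that of C2 to form the convertase of the classical and lectin pathways. C4b (Entrez Gene 12268) read 10.46, 10.25, 10.07 and 10.26 in Ctrl and 9.62, 9.05, 9.40 and 9.42 in LKB1 KO, a difference of -0.89 (SE 0.15, adjusted p = 0.0152). C2 (Entrez Gene 12263) read 8.30, 7.85, 7.45 and 7.31 in Ctrl and 6.73, 6.68, 6.93 and 6.81 in LKB1 KO, a difference of -0.94 (SE 0.20, adjusted p = 0.0442). The Ctrl arrays of C2 spread widely (SD 0.45), and the lowest of them stayed 0.37 above all LKB1 KO arrays.

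Cfb (Entrez Gene 14962) encodes factor B, the protease of the alternative pathway convertase. It read 11.36, 11.16, 11.09 and 11.28 in Ctrl and 10.64, 10.63, 10.74 and 10.57 in LKB1 KO, a difference of -0.58 (SE 0.12, adjusted p = 0.0336). C2 minus Cfb within arrays differed by -0.36 (SE 0.20) between the groups, which overlapped. Cfp, the gene of properdin, which stabilises that convertase and is made by leukocytes, stood at -0.30 (adjusted p = 0.658), with overlapping groups. The call of C2 ended without any array other than Ctrl 3 or Ctrl 4 (adjusted p up to 0.130), under quantile normalization (0.0617) and with no moderation of variances (0.191), that of Cfb without any array other than Ctrl 3 (up to 0.104) or without both LKB1 KO 2 and Ctrl 4 (0.0860), and that of C4b without Ctrl 2 (0.0511) or with no moderation (0.0787). The probes of C4b may share sequence with C4a, which stood at -0.98 (adjusted p = 0.259).

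Some plasma regulators fell as well. Of 5 measured soluble regulators, 2 fell, 0 rose and 3 did not pass, with a median of -0.44. The groups did not overlap for any of the 5, all lower in LKB1 KO, beside 5.5% of all genes in that direction. For Clu, which did not pass, they stood only 0.06 apart. C4bp (Entrez Gene 12269) encodes the C4b-binding protein, which dissociates the classical convertase. It read 10.43, 10.55, 10.43 and 10.50 in Ctrl and 9.85, 9.64, 9.57 and 9.89 in LKB1 KO, a difference of -0.74 (SE 0.12, adjusted p = 0.0132). Cfi (Entrez Gene 12630), the gene of the protease factor I, read 10.19, 10.07, 9.99 and 10.00 in Ctrl and 9.30, 9.34, 9.45 and 9.37 in LKB1 KO, a difference of -0.70 (SE 0.11, adjusted p = 0.0123). Both groups of Cfi were tight, with a gap of 0.53 between them. The call of C4bp ended without Ctrl 2 (adjusted p = 0.0514).

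Serping1, the gene of the C1 inhibitor, missed the threshold. It read 11.08, 10.99, 11.00 and 11.15 in Ctrl and 10.68, 10.56, 10.62 and 10.59 in LKB1 KO, so the groups stood 0.31 apart. Its difference was -0.44 (SE 0.11, adjusted p = 0.0777). Vtn, which encodes vitronectin, an inhibitor of the terminal complex, stood at -0.44 too (SE 0.11, adjusted p = 0.0793), and Clu, the gene of clusterin, at -0.19 (SE 0.12, adjusted p = 0.532). Serping1 and Vtn were both called lower with a trended and robust prior variance (adjusted p = 0.00879 and 0.00584) and with no moderation of variances (0.0368 and 0.0419). Neither was called in any other of the 16 alternatives, where adjusted p reached 0.189 for Serping1 and 0.196 for Vtn.

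The membrane regulators gave no call. Of the 3, none passed in either direction in limma (0 calls); at an unadjusted p under 0.05, 1 was lower and 0 higher, and none passed with no moderation of variances. Cd59a, which blocks the insertion of C9, stood at -0.38 (SE 0.15, adjusted p = 0.306). Cd55, the decay-accelerating factor, stood at -0.03 with a 95% interval from -0.58 to 0.52, which leaves room for a change as large as that of Cfb. Cd46 was below the gauge in all 8 arrays.

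The receptor genes also gave no call, and in most arrays their values lay near or under the background gauge, with Itgam in Ctrl 4 as the exception. Of the 4, 0 rose and 0 fell in limma, 0 had an unadjusted p under 0.05, and none passed with no moderation of variances. C3ar1, the C3a receptor, read 3.89, 3.40, 3.36 and 4.16 in Ctrl and 3.43, 3.26, 3.13 and 3.72 in LKB1 KO, a difference of -0.32 (SE 0.20, adjusted p = 0.566). C5ar1, the C5a receptor, read 3.47, 3.02, 2.55 and 3.40 in Ctrl and 3.70, 2.87, 2.37 and 3.30 in LKB1 KO, with no array above the gauge. These receptors are mostly carried by leukocytes, a minor part of liver RNA.

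The integrin genes Itgam and Itgax encode the alpha chains of complement receptors 3 and 4. Itgam read 3.67, 3.18, 2.78 and 5.44 in Ctrl and 3.51, 3.79, 2.64 and 3.40 in LKB1 KO, so that Ctrl 4 stood alone. The mean difference of -0.43 was 0.12 without Ctrl 4. In Ctrl 4 the neutrophil genes S100a8, S100a9 and Retnlg also had their highest values, 8.14, 9.47 and 4.86. Ly6g, Cxcr2, Ltf, Camp and Ngp had theirs in other arrays. The summed neutrophil markers, in which the brightest genes weigh most, ran from 8.41 to 10.06 in Ctrl and from 7.74 to 8.34 in LKB1 KO. At an unadjusted p under 0.05, 3 of those 8 markers were lower, beside 7.63% of all genes. Of the 8 markers, 0 passed and 5 had a mean below the gauge. Their part in the Itgam value was not tested. Itgax read 2.89, 3.05, 2.65 and 3.08 in Ctrl and 2.93, 3.56, 2.77 and 2.97 in LKB1 KO, below the gauge throughout.

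Of 22 other measured complement genes, 3 fell and 0 rose (13.6% lower), where 1.49% of all genes fell and 0.487% rose. At an unadjusted p under 0.05, 10 were lower and 0 higher, beside 7.63% and 5.8% of all genes, and the median was -0.33. C1s1, the second protease of the C1 complex and the substrate of C1r, read 8.74, 8.13, 8.45 and 8.22 in Ctrl and 7.02, 6.68, 7.05 and 7.53 in LKB1 KO, a 2.49-fold fall (-1.31, SE 0.20, adjusted p = 0.00807). Cpn1 and Cpn2 encode the catalytic and the carrier subunit of carboxypeptidase N, the plasma enzyme that inactivates the peptides C3a and C5a. Cpn2 fell by 1.00 log2 units (SE 0.16, adjusted p = 0.0103) and Cpn1 by 0.55 (SE 0.11, adjusted p = 0.0347). With no moderation of variances, 1 of the 22 was called lower. The probes of C1s1 may share sequence with C1s2, which lay below the gauge in all arrays.

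The C1q chains, the recognition part of the C1 complex, which macrophages make, did not pass. C1qa stood at -0.34 (adjusted p = 0.367), C1qb at -0.48 (adjusted p = 0.299) and C1qc at -0.32 (adjusted p = 0.514). Before adjustment, the limma p was 0.0483 for C1qa, 0.0302 for C1qb and 0.112 for C1qc. The groups of C1qa and C1qb did not overlap, by at most 0.01 log2 units, and those of C1qc did. The difference between the chains and C1ra or C1s1 was not tested. Of 9 measured macrophage markers, 1 fell and 8 did not pass, with 6 lower at an unadjusted p under 0.05, a lower mean for all 9 and a median of -0.51. Over all genes these shares were 1.49% falling, 7.63% lower at an unadjusted p under 0.05 and 47.1% with a lower mean. The macrophage marker that fell was Csf1r, the receptor of a macrophage growth factor (-0.78, SE 0.16, adjusted p = 0.0378). Summed over the 9 markers, the level ran from 9.42 to 10.34 log2 units in Ctrl and from 9.01 to 9.43 in LKB1 KO, so the groups overlapped slightly. None of the 9 markers, Clec4f and Adgre1 included, had a mean below the gauge. Their part in the C1q values was not tested.

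The liver identity of the samples was seen in hepatocyte markers, which were high in all arrays. Of all genes, 1.49% fell, 7.63% were lower at an unadjusted p under 0.05, 47.1% had a lower mean and 5.5% were lower without overlap. Over the 9 hepatocyte markers measured, Alb and Ttr among them, the median difference was -0.16. Of the 9, 0 passed the threshold and 3 were lower at an unadjusted p under 0.05. The mean was lower in LKB1 KO for 8 of these markers, and for 5 the groups did not overlap, all lower. Their summed level lay between 15.10 and 15.16 log2 units in Ctrl and between 14.89 and 14.99 in LKB1 KO, while that of the 32 complement genes lay between 14.74 and 14.85 in Ctrl and between 14.20 and 14.28 in LKB1 KO. Hnf4a, a transcription factor gene of hepatocytes, stood at -0.04 (adjusted p = 0.939). The fibrinogen genes Fga and Fgb stood at -0.51 (adjusted p = 0.0501) and -0.42 (adjusted p = 0.0929). Sinusoidal endothelial markers had 4 of 8 measured past the threshold, all lower (Clec4g, Gpr182, Fcgr2b and Kdr), and a median of -0.67. Their summed levels ran from 10.13 to 10.43 in Ctrl and from 9.65 to 9.89 in LKB1 KO. None of these markers had a mean below the gauge. Male-biased liver genes had 5 of 6 measured past the threshold, all lower, a lower mean for all 6 and a median of -2.14. The 4 of smallest p in limma were Cyp4a12a (-3.01), Cyp2d9 (-1.42), Slco1a1 (-1.18) and Elovl3 (-3.69). Summed levels of the 6 ran from 11.43 to 12.26 in Ctrl and from 10.33 to 10.72 in LKB1 KO. The 3 Y-linked genes measured were above the gauge in all 8 arrays. The part of these endothelial and male-biased genes in the complement values was not tested.

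**Figure D3:**
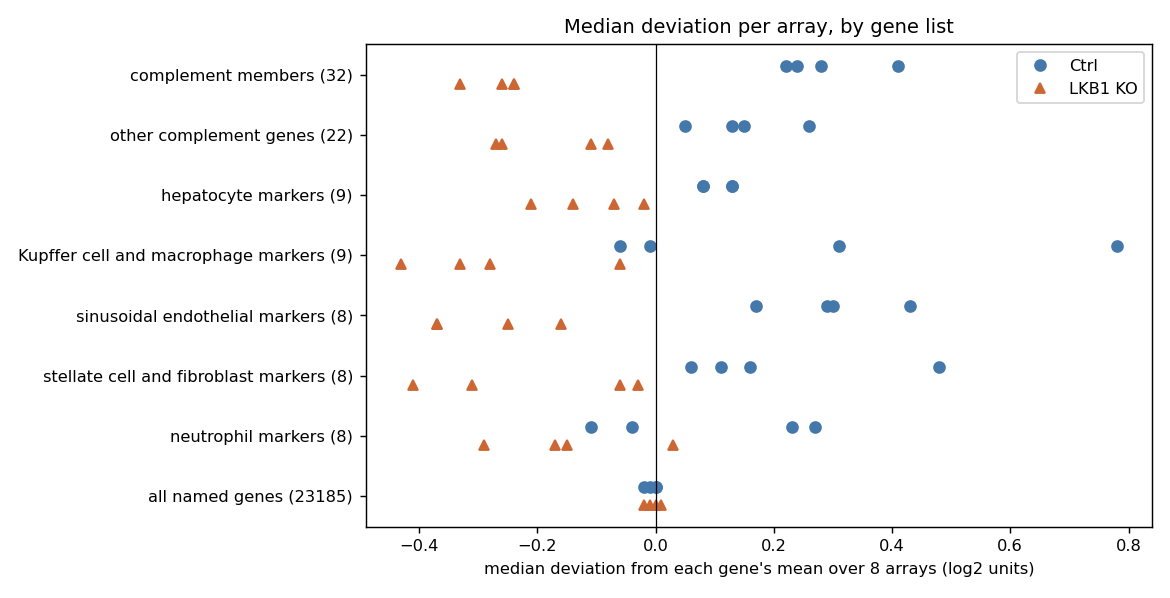
Median deviation per array for 8 gene lists, in log2 units: for each array, the median over the genes of the list of the gene's value minus its mean over the 8 arrays; circles are Ctrl arrays, triangles LKB1 KO arrays, and the number of genes stands in brackets. The 32 complement genes lie between 0.22 and 0.41 in Ctrl and between -0.33 and -0.24 in LKB1 KO, the hepatocyte markers between 0.08 and 0.13 and between -0.21 and -0.02, and the median of all named genes stays within 0.02 of 0.

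Array by array, the terminal pathway, the initiating proteases, the convertase genes and the soluble regulators kept the groups apart in their median deviation. The terminal pathway lay between 0.20 and 0.50 in Ctrl and between -0.46 and -0.30 in LKB1 KO. The convertase genes lay between 0.17 and 0.71 in Ctrl and between -0.55 and -0.26 in LKB1 KO, with Ctrl 1 the highest. The recognition lectins overlapped, since Ctrl 4, at -0.10, was under LKB1 KO 3, at -0.01. The membrane regulators and receptors overlapped too.

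The calls did not all hold equally well. C6, C1ra, C8a and Mbl1 were called lower in all 16 alternatives, C9 and Cfi in 15, and C2 and Cfb in 7. In all 16, the differences of the 13 called genes stayed below 0.

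**Figure D4:**
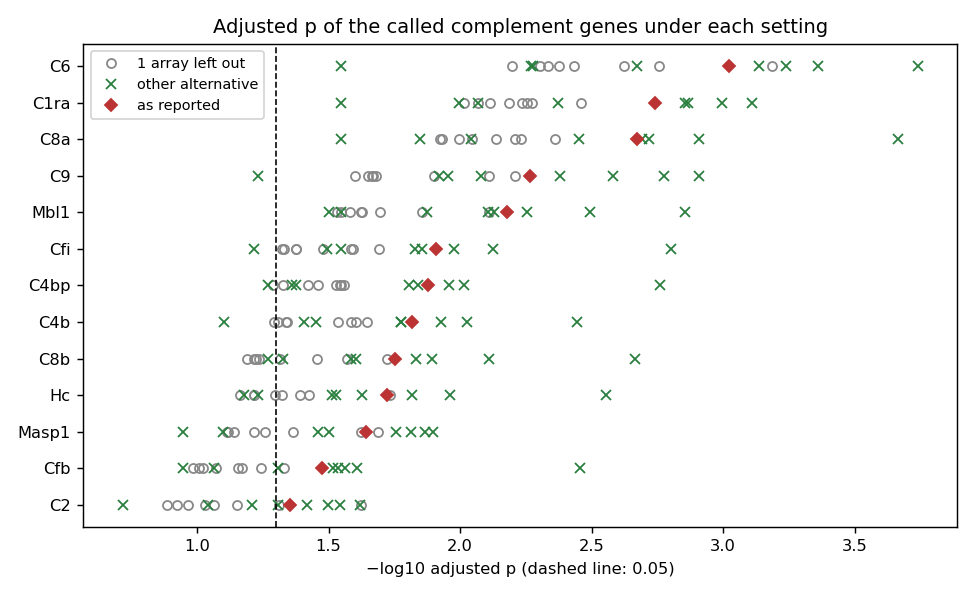
Adjusted p of the 13 called complement genes, as −log10, as reported (red diamonds), with 1 array left out (grey circles) and under the other alternatives (green crosses); the dashed line is the threshold of 0.05. C6, C1ra, C8a and Mbl1 stay to the right of the line in all 16 alternatives, and C2 and Cfb cross it in 9.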

How the data were processed

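The deposited table holds log2 expression values, 1 for each row and array, summarised and normalized by the authors before deposit. Per the submitters' processing notes the tools were RMA, which subtracts background, brings arrays to a common distribution and summarises probes, and Partek. For their versions, the array design and the genome build, the answer is the same: not given in the sources used here. RMA compresses differences of dim genes, and probes can cross-react within gene families. Of 25206 rows, 23185 had 1 gene symbol, 0 had several and 2021 had none in the platform annotation, and the named rows were analysed without a filter. Samples were grouped by title. limma 3.58.1 in R 4.3.3 (lmFit, eBayes) was fitted with group as the single term and Benjamini-Hochberg adjustment. Members and gene lists were chosen with earlier results of these data known, so lists are described by counts and medians. All members with a named row are named; array values are given for called members, the 2 nearest misses, the receptors and Mbl2. Up to 4 called genes of a marker list are named, and further genes where a value is compared. Also examined were cholangiocyte (0 of 5 called), lymphocyte (0 of 7), monocyte and dendritic cell (0 of 7), adipocyte (0 of 6) and female-biased lists (0 of 6). At an unadjusted p under 0.05, 1 adipocyte gene was lower and 1 higher, and 2 female-biased genes were higher. Alternatives were the replicate block, arrays left out, 2 other scalings, a filter on dim genes, a trended robust prior, array weights and no moderation. The fit was tested on simulated data with 200 changed genes. The number of arrays limits the precision.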

Additional observations from a re-analysis of the deposited data

Results flagged for a closer look

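Within a group of 4 arrays, 1 value stood far from the other 3 in 5 of 66 groups examined; chance marks about 1 in 20. Colec11 read 5.47 in Ctrl 4, where the other Ctrl arrays lay between 6.04 and 6.08. Masp1 read 7.86 in Ctrl 4, against 8.15 to 8.20 in the others. C7 read 2.75 in Ctrl 2, against 3.15 to 3.19, below the background gauge throughout. C8a read 9.54 in LKB1 KO 1, against 9.31 to 9.32. Cd59a read 7.47 in Ctrl 2, against 7.25 to 7.28.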

How the results depend on the processing

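No complement gene was called higher under any of the 16 alternatives, and the members' median stayed below 0 in each. With single arrays left out, 6 to 14 complement genes, 164 to 382 of all genes, and 2 to 3 of the other complement genes were lower, 42 to 144 of all genes were higher, and the members' median ran from -0.58 to -0.47. With the replicate block, 6 complement genes and 186 of all genes were lower; the calls of Masp1, C2, Cfb, Hc, C8b, C4bp and Cfi were lost. The labels do not say whether equal replicate numbers pair the samples. Same-numbered arrays correlated in their deviations at -0.036, -0.109, 0.183 and -0.022 for numbers 1 to 4. For number 3 alone the Ctrl array correlated best with its own number. With 4 arrays per group, these values cannot show whether the samples were paired. Quantile normalization called 198 of all genes higher and array weights 254 (36.8% and 35.2% of calls, against 24.7% as reported). With no moderation of variances, 84 of all genes were lower and 13 higher (13.4% of calls), and 1 of the other complement genes was lower. Without the dimmest of 3 equal bins of genes the median was -0.58, over the 29 members left. Over single members, 42 calls were lost, 28 of them with 1 array left out, and 8 gained. The cause of these changes was not tested. Signals near the background gauge limit what can be said of C7, Cd46 and the receptors.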

Other observations

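Several complement genes lie side by side in the RefSeq annotation of the GRCm38.p6 assembly. C2 and Cfb, with 0 coding genes between them, both fell, as did C8a and C8b. C1rl, C1ra, C1s1, C1rb and C1s2 follow each other in that order, with 0 coding genes between each and the next, at -0.52, -1.21, -1.31, -0.47 and 0.19; the last 2 lay below the background gauge in all arrays. C6 and C7 have 1 coding gene between them; C6 fell while C7 was not above the background gauge in any array. C4bp fell, and Cd55, with 1 coding gene between, stood at -0.03.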
